A study of Mus musculus with 5 samples.

Results

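Lrrc15, Tnc and Postn are 3 of the 27998 genes counted in single-cell RNA libraries of the mouse mammary gland, and their counts are described here in fibroblasts. The genes were taken by their symbols, and a barcode (a droplet read as a cell) counted as a fibroblast when Col1a1, Col1a2, Col3a1 and Dcn together gave at least 50, and Epcam and Krt18 together fewer than 5, of each 10,000 unique molecular identifiers (UMIs, each standing for a captured transcript). This gave 6465 of the 14317 barcodes that passed the quality filter. The 3 genes were selected on their UMIs in the fibroblast barcodes of these same libraries, so their levels, shares of barcodes and co-expression are a description, and no test is given on them.

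The 5 libraries, 1 per group, came from the fourth mammary glands of ovariectomized female BALB/cj mice labelled as 30 weeks old, and every group, the control included, had lost its ovaries 20 weeks before a treatment of 1 week. OVX received vehicle, OVX_E2 received estradiol (E2) at 1 µg per animal, and OVX_E2_P4 received the same E2 with progesterone (P4) at 0.1 mg per animal. OVX_E2_PBDE and OVX_E2_P4_PBDE received these hormones with food that held polybrominated diphenyl ethers (PBDEs), flame retardants, with doses of 7.1, 0.4 and 0.9 mg/kg of food for BDE-47, BDE-100 and BDE-153. The glands were dissociated to single cells that were not sorted, and the number of mice behind a library is not given in the sources used here. Each group being a single library without replicates, every interval below is a 95% interval of counting error and leaves out the variation between animals and preparations. The intervals of levels and of their ratios also take each UMI as independent. They thus leave out the variation between the barcodes of a library and are too narrow where few barcodes hold many UMIs.

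In the order OVX, OVX_E2, OVX_E2_PBDE, OVX_E2_P4 and OVX_E2_P4_PBDE there were 2546, 813, 1841, 574 and 691 fibroblast barcodes, with a median of 5219, 6698, 7076, 5525 and 4269 UMIs. All 8 fibroblast markers (the 4 gate genes, Pdgfra, Pdgfrb, Lum and Vim) had UMIs in every library, with a summed level of 21786 to 33925 UMIs per 1000000 (CPM) in the fibroblast barcodes and 2076 to 3386 in the others. The summed level of the epithelial markers Epcam, Krt18, Krt8 and Krt19 in the same barcodes was 216 CPM in OVX and 406 to 704 CPM in the libraries with E2. Epithelial barcodes numbered 269 in OVX and 1836 in OVX_E2_P4, the lowest and the highest. Barcodes outside the fibroblast gate that carried markers of several classes numbered 120 and 482 in the same libraries. Across the libraries, 80 barcode sequences occurred in more than 1. The library numbers that the submitters wrote into the names of their data are neighbours for both libraries with PBDEs and lie away from those of the 3 without. What these numbers mark is not given, and with 1 library per group a treatment and anything else that differs between libraries cannot be told apart.

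All 3 genes code for proteins of the cell surface or the extracellular matrix that are known from activated stroma. Lrrc15 encodes a membrane protein with leucine-rich repeats that is known as a marker of activated fibroblasts in wounds and tumours. Tnc encodes tenascin-C and Postn encodes periostin, matricellular proteins that bind collagens, fibronectin and integrins, and both are known from tissue that is being remodelled, such as the developing mammary mesenchyme, healing wounds and tumour stroma. Transforming growth factor beta is a known inducer of all 3, and in the adult gland the steroid hormones act on stroma as well as on epithelium.

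In the mouse genome build GRCm38 (GENCODE release M21), Lrrc15 lies on chromosome 16 from 30269302 to 30283256 on the minus strand, with 2 exons in its longest coding transcript and no overlapping gene. Tnc lies on chromosome 4 from 63959785 to 64047015 on the minus strand, with 26 exons, and the noncoding gene 8030451A03Rik overlaps it on the opposite strand. Whether the counting used strand is not given in the sources used here, so Tnc reads from this overlap are uncertain. Postn lies on chromosome 3 from 54361109 to 54391037 on the plus strand, with 23 exons and no overlapping gene. The bases just upstream of each annotated start are printed because Lrrc15 and Postn were found in the same barcodes, as described below, so that their promoters can be read side by side. They run from 5′ to 3′ in the direction of the gene, from RefSeq on GRCm38.p6, and capitals mark the motifs that a search found.
Lrrc15, chr16:30283257-30283504, minus strand: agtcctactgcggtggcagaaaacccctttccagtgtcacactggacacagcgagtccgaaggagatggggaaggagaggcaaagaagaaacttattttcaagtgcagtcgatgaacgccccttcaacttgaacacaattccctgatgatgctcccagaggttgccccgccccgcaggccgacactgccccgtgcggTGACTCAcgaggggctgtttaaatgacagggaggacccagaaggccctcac
Tnc, chr4:64047016-64047265, minus strand: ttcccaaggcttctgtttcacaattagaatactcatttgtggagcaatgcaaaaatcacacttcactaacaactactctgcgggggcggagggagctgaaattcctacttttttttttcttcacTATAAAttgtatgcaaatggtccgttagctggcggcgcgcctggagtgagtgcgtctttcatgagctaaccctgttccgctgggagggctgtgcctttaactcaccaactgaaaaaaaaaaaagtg
Postn, chr3:54360857-54361106, plus strand: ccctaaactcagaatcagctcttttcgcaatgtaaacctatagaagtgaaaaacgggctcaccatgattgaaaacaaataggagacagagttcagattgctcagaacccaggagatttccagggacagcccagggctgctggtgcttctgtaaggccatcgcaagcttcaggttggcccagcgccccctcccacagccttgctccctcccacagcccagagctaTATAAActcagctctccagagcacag
The motifs searched on both strands were the TATA box TATAAA, the AP-1 site TGACTCA, the estrogen response element (GGTCA and TGACC with NNN between them), the TEAD site GGAATG, the SMAD palindrome GTCTAGAC and the E-boxes CAGCTG and CATCTG. The Lrrc15 sequence held 1 AP-1 site, which starts at -51 from its last base, and the Tnc and Postn sequences held 1 TATA box each, at -126 and -26. Of 32851 upstream windows of 250 bases in the RefSeq table, 4.46% held this AP-1 site, 12.4% the TATA box and 0.0639% the estrogen response element. The remaining motifs were in 0.167% of the windows (SMAD palindrome), 12.6% (TEAD site), 13.0% and 14.4% (the E-boxes), and in none of these 3 sequences. A match gives the letters in a window and says nothing of binding.

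Lrrc15 was nearly absent from the fibroblasts of OVX, the ovariectomized group given vehicle, and present in each library with E2. Its level was 1.02 CPM (0.556 to 1.71, 14 UMIs) in OVX, 25.7 CPM (21.8 to 30.1, 151 UMIs) in OVX_E2, 21.7 CPM (19.3 to 24.3, 298 UMIs) in OVX_E2_PBDE, 46.4 CPM (39.4 to 54.3, 157 UMIs) in OVX_E2_P4 and 12.7 CPM (9.08 to 17.3, 40 UMIs) in OVX_E2_P4_PBDE. In order, OVX lay far below, OVX_E2_P4_PBDE came next, OVX_E2_PBDE and OVX_E2 had overlapping intervals, and OVX_E2_P4 was highest.

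Tnc was low in all 5 libraries and followed another order. Its level was 15.1 CPM (13.1 to 17.3, 208 UMIs) in OVX, 14.1 CPM (11.2 to 17.5, 83 UMIs) in OVX_E2, 8.22 CPM (6.78 to 9.89, 113 UMIs) in OVX_E2_PBDE, 15.7 CPM (11.7 to 20.5, 53 UMIs) in OVX_E2_P4 and 5.08 CPM (2.91 to 8.26, 16 UMIs) in OVX_E2_P4_PBDE. The 3 libraries without PBDEs had overlapping intervals, and both libraries with PBDEs lay below them, with intervals that overlapped each other.

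Postn was abundant in every library. Its level was 651 CPM (638 to 665) in OVX, 1343 CPM (1314 to 1373) in OVX_E2, 1230 CPM (1211 to 1248) in OVX_E2_PBDE, 2308 CPM (2257 to 2360) in OVX_E2_P4 and 843 CPM (811 to 876) in OVX_E2_P4_PBDE. None of these counting intervals overlapped, though they leave out the variation between barcodes. The order from low to high was OVX, OVX_E2_P4_PBDE, OVX_E2_PBDE, OVX_E2 and OVX_E2_P4, the same as for Lrrc15. Since the kit reads the 3′ ends of transcripts, levels are compared for 1 gene between libraries and not between genes.

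**Figure D1:**
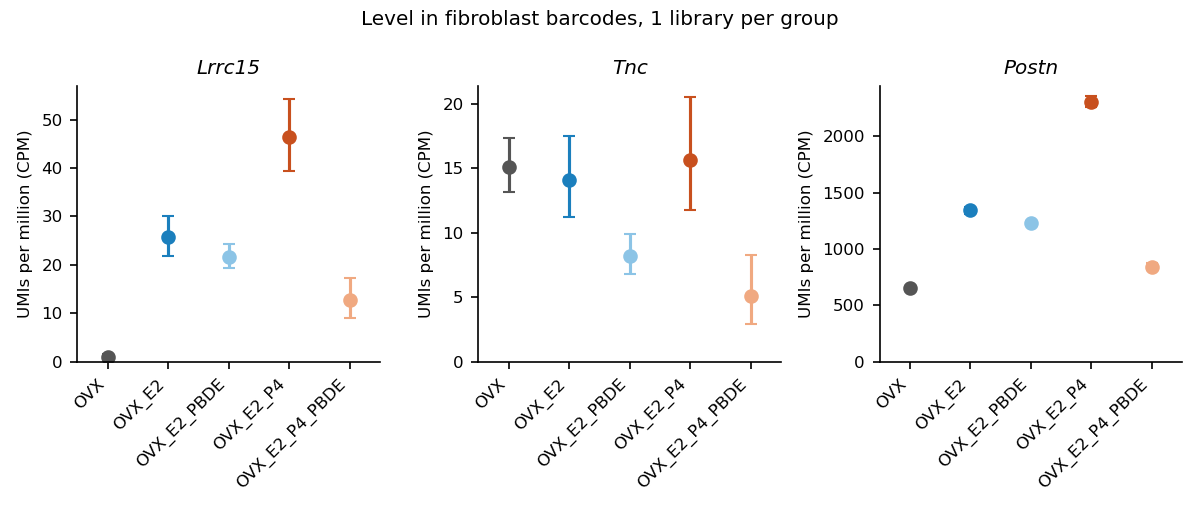
Level of each gene (UMIs per 1000000, linear axes from 0) in the fibroblast barcodes of the 5 libraries; bars are exact Poisson 95% intervals, 1 library per group. Lrrc15 was 1.02 CPM in OVX and 12.7 to 46.4 CPM in the 4 libraries with E2, Postn followed the same order, and Tnc was lowest in both libraries with PBDEs.

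Lrrc15 and Tnc were each found in a small minority of fibroblast barcodes and Postn in most. To compare shares at equal depth, each barcode was thinned to 3000 UMIs, and at least 1 UMI counted as positive. No fibroblast barcode was below this depth, since the shallowest in a library held 3374 to 5397 UMIs, and this lower end, set by the cell calling, differed between libraries. Lrrc15 was then in 0.196% of the barcodes of OVX (0.0638 to 0.458), 6.27% of OVX_E2 (4.71 to 8.17), 5.92% of OVX_E2_PBDE (4.89 to 7.10), 8.89% of OVX_E2_P4 (6.69 to 11.5) and 3.33% of OVX_E2_P4_PBDE (2.12 to 4.95), with unthinned shares of 0.471%, 9.96%, 9.61%, 14.5% and 4.20%. Tnc was in 2.79% (2.18 to 3.50), 1.60% (0.854 to 2.72), 1.63% (1.10 to 2.32), 2.96% (1.73 to 4.70) and 1.45% (0.696 to 2.65) in the same order, and in 3.93%, 3.08%, 2.88%, 4.70% and 2.03% without thinning. Postn was in 71.4% (69.6 to 73.1), 76.3% (73.2 to 79.1), 67.4% (65.2 to 69.5), 79.6% (76.1 to 82.8) and 66.4% (62.8 to 69.9), and in 83.3%, 92.4%, 84.9%, 90.2% and 76.8% without thinning.

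Free RNA in a droplet can give UMIs to cells that do not express a gene. The same shares were therefore taken as a background in barcodes gated as hematopoietic by Ptprc, Laptm5 and Coro1a. Whether the cells of these barcodes also express the genes themselves was not tested. Over the 303 such barcodes, which had a median of 5576 UMIs against 5927 in the fibroblasts, the thinned share was 1.32% for Lrrc15 (0.361 to 3.35), 0.660% for Tnc (0.0800 to 2.36) and 18.8% for Postn (14.6 to 23.7). The hematopoietic barcodes with Lrrc15 came from the libraries with E2, and in OVX 0 of 93 held it, a share of 0 with an upper limit of 3.89%. The Lrrc15 share of OVX fibroblasts, 5 barcodes, could not be told from background with so few hematopoietic barcodes. OVX_E2, OVX_E2_PBDE and OVX_E2_P4 had intervals above that of the hematopoietic barcodes. In OVX_E2_P4_PBDE the Lrrc15 interval overlapped it, and 1 of the 42 hematopoietic barcodes of that library was positive (2.38%). Taken library by library the hematopoietic barcodes are few (33 to 93), and in OVX_E2 and OVX_E2_PBDE their own shares of 3.03% and 2.70% had intervals that reached those of the fibroblasts, as the plot of shares by class shows. For Tnc the fibroblast intervals of all 5 libraries overlapped the hematopoietic interval, and over all libraries together 2.18% of fibroblast barcodes (1.84 to 2.57) and 0.682% of the 5722 luminal epithelial ones (0.485 to 0.931) were positive.

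Postn was not particular to fibroblasts. Barcodes gated as basal by Krt5, Krt14 and Krt17 had 388 CPM over all libraries (368 to 408, 351 barcodes), with 294 to 481 CPM by library, and 62.1% of them were positive after thinning (56.8 to 67.2). Epithelial barcodes had 57.8 CPM (56.2 to 59.4) and hematopoietic ones 66.2 CPM (55.1 to 78.8). Lrrc15 had 0.526 CPM in basal, 1.16 CPM in epithelial and 3.18 CPM in hematopoietic barcodes, against 16.5 CPM in fibroblasts over all libraries, and Tnc had 1.84, 2.24 and 1.59 CPM against 11.9 CPM. The 36 endothelial barcodes held 5 Tnc UMIs (18.6 CPM, 6.05 to 43.5) in 5.56% of the barcodes before thinning and no Lrrc15 UMI, a share of 0 with an upper limit of 9.74%. Only 4 barcodes were gated as pericytes and 0 as Schwann cells, so neither class is described.

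**Figure D2:**
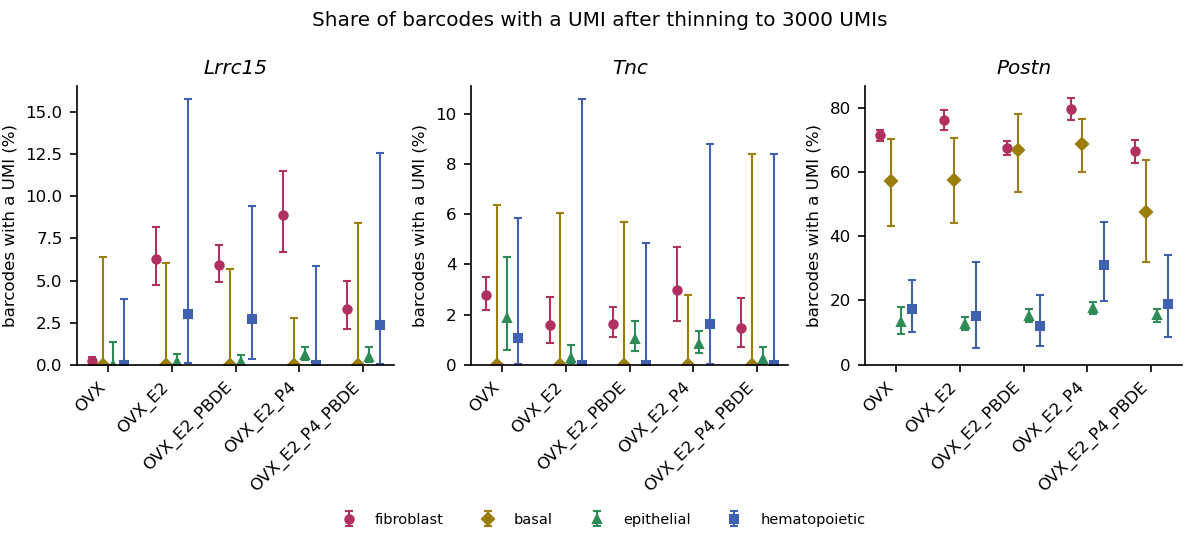
Percent of barcodes with at least 1 UMI after thinning to 3000 UMIs, by library, for fibroblast (circles), basal (diamonds), epithelial (triangles) and hematopoietic (squares) barcodes; bars are exact Clopper-Pearson 95% intervals. Lrrc15 in fibroblasts was at 0.196% in OVX and 3.33% to 8.89% with E2, and Postn was also in 47.6% to 68.7% of the basal barcodes.

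E2 alone was compared with vehicle. In OVX_E2 the Lrrc15 level was 25.3 times that of OVX (14.6 to 47.3), a ratio that rests on 14 UMIs in OVX, 12 barcodes in all, and the thinned share was 6.08 percentage points higher (4.49 to 7.97). Tnc differed by less than its counting error, with a ratio of 0.934 (0.715 to 1.21). The Postn level was 2.06 times that of OVX (2.00 to 2.13), while its share was 4.89 points higher (1.35 to 8.30), and the thinned UMIs per positive barcode were 2.79 in OVX and 5.31 in OVX_E2.

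The higher Postn level with E2 lay in the upper part of the barcodes. Postn UMIs per 10,000 in the median barcode were 4.78 (OVX), 5.67 (OVX_E2), 3.99 (OVX_E2_PBDE), 7.25 (OVX_E2_P4) and 4.05 (OVX_E2_P4_PBDE). The 90th percentile was 15.3, 33.6, 33.6, 70.4 and 18.9 in the same order, and the 95th was 19.5, 58.9, 68.0, 103 and 33.5. Medians thus lay on both sides of OVX, while the 95th percentile of each library with E2 was above it. The tenth of the barcodes with most Postn UMIs held 33.6% of the UMIs in OVX and 49.5% to 62.5% with E2.

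**Figure D3:**
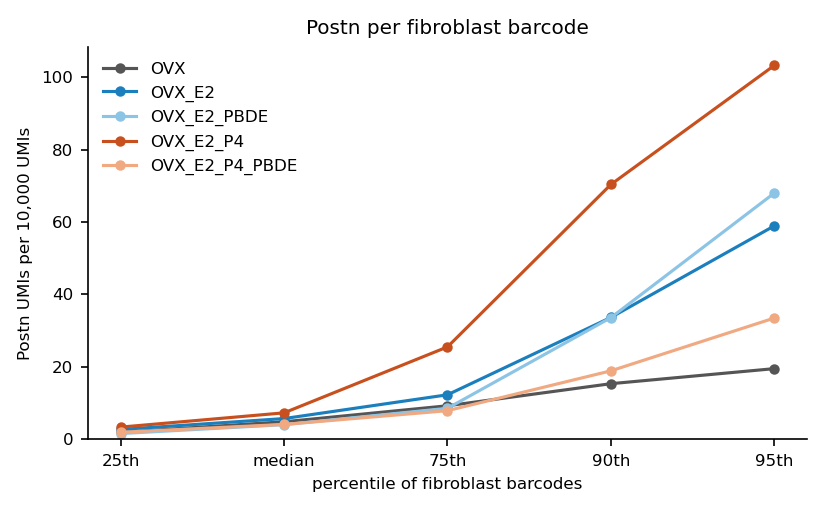
Postn UMIs per 10,000 UMIs at the 25th to 95th percentile of the fibroblast barcodes of each library, 1 line per library. The libraries lie close at the median (3.99 to 7.25) and spread at the 95th percentile, from 19.5 in OVX to 103 in OVX_E2_P4.

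P4 was compared at both levels of PBDEs. Without PBDEs, OVX_E2_P4 had 1.81 times the Lrrc15 of OVX_E2 (1.44 to 2.27), 1.72 times the Postn (1.67 to 1.77) and 1.11 times the Tnc (0.771 to 1.58). With PBDEs, OVX_E2_P4_PBDE had 0.586 times the Lrrc15 of OVX_E2_PBDE (0.410 to 0.817), 0.686 times the Postn (0.658 to 0.714) and 0.618 times the Tnc (0.342 to 1.05). For Lrrc15 and Postn the intervals lay above 1 without PBDEs and below 1 with them, although the Lrrc15 interval with PBDEs held 1 at an epithelial limit of 2 (0.599, 0.329 to 1.01), and for Tnc both intervals held 1. This difference between the directions was not tested, since each ratio compares 1 library with 1 library. Without PBDEs the thinned share differed by 2.61 points for Lrrc15 (-0.289 to 5.67) and 3.36 for Postn (-1.21 to 7.81). With PBDEs it differed by -2.59 points for Lrrc15 (-4.28 to -0.667) and -0.929 for Postn (-5.17 to 3.22). Apart from Lrrc15 with PBDEs, these share intervals reached both signs.

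PBDEs were compared with the matched hormone treatment. With E2, OVX_E2_PBDE had 0.844 times the Lrrc15 of OVX_E2 (0.692 to 1.03), 0.916 times the Postn (0.891 to 0.940) and 0.582 times the Tnc (0.435 to 0.782). The lower Tnc level was not seen in the thinned share of positive barcodes, which differed by 0.0305 points (-1.21 to 1.04). In OVX_E2 the 83 Tnc UMIs lay in 25 barcodes, with up to 16 in a barcode, so this ratio rests on few barcodes. The median over all genes in this comparison was -0.17 on the log2 scale, below the Postn value of -0.13, so relative to the other genes the pooled Postn level was not lower. The thinned share of Postn-positive barcodes was lower, by -8.91 points (-12.5 to -5.16). With E2 and P4, OVX_E2_P4_PBDE had 0.274 times the Lrrc15 of OVX_E2_P4 (0.189 to 0.390), 0.325 times the Tnc (0.173 to 0.577) and 0.365 times the Postn (0.349 to 0.382), with a median over all genes of -0.07 on the log2 scale. Here all 3 genes were lower, though for Tnc, with 16 UMIs in OVX_E2_P4_PBDE, the interval held 1 at a stricter epithelial limit of 2 (0.468, 0.160 to 1.24), as it did in OVX_E2_PBDE against OVX_E2 (0.719, 0.488 to 1.08). For Postn the share of positive barcodes differed from that of OVX_E2_P4 by -13.2 points (-18.1 to -8.21). For Tnc the share differed by -1.51 points (-3.41 to 0.201). These comparisons share libraries and are not independent.

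Lrrc15 and Tnc were found in the same barcodes more often than their shares would give. After thinning, OVX had 1 barcode with both, OVX_E2 had 6, OVX_E2_PBDE had 13, OVX_E2_P4 had 7 and OVX_E2_P4_PBDE had 2, where the product of the shares gave 0.139, 0.815, 1.78, 1.51 and 0.333. Over the 5 libraries this was 29 observed for 4.57 expected, 6.34 times (4.25 to 9.10). All 29 also held Postn. Of the Tnc-positive barcodes of OVX_E2_PBDE, 43.3% were Lrrc15-positive (25.5 to 62.6, 30 barcodes) and of its Tnc-negative ones 5.30%, whereas in OVX the Lrrc15-positive share of the 71 Tnc-positive barcodes was 1.41% (0.0357 to 7.60).

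Postn was high in the barcodes with Lrrc15. Without thinning, its level in barcodes with and without an Lrrc15 UMI was 5030 and 903 CPM in OVX_E2, 5731 and 743 CPM in OVX_E2_PBDE, 7550 and 1360 CPM in OVX_E2_P4, and 4178 and 686 CPM in OVX_E2_P4_PBDE, a ratio of 5.57, 7.71, 5.55 and 6.09. In OVX, where the Lrrc15 share could not be told from background, the 12 barcodes with an Lrrc15 UMI had 1931 CPM against 645 in the rest. The median UMIs of the barcodes with and without Lrrc15 were close, for example 7039 and 6663 in OVX_E2. Barcodes with Lrrc15 held 39.9%, 45.4%, 50.1% and 22.2% of all Postn UMIs in the 4 libraries with E2, in the order above, and 1.41% in OVX.

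Tnc and Postn were no more often in the same barcode in OVX than their shares would give, and somewhat more often in each library with E2. In OVX 49 barcodes held both after thinning for 50.7 expected, and Pearson's r of log(1 + UMIs per 10,000) over the 2546 barcodes was 0.01. Over the 5 libraries together, OVX included, 119 barcodes held both for 101 expected, 1.18 times (0.976 to 1.41). Without thinning this was 1.05 times (0.909 to 1.21), and both intervals held 1. These Poisson intervals ignore that the joint count cannot exceed the number of Tnc-positive barcodes. They are thus too wide, and holding 1 does not show that the genes were independent. By library, the thinned ratio was 0.967 in OVX and 1.26 to 1.51 with E2. With E2, all 13, 30, 17 and 10 Tnc-positive barcodes of OVX_E2, OVX_E2_PBDE, OVX_E2_P4 and OVX_E2_P4_PBDE held Postn, and r was 0.22, 0.24, 0.26 and 0.19. The Postn level in barcodes with a Tnc UMI was 754 CPM against 647 in OVX, 5280 against 1213 in OVX_E2, 4496 against 1133 in OVX_E2_PBDE, 6980 against 2043 in OVX_E2_P4 and 2750 against 802 in OVX_E2_P4_PBDE. Barcodes with Lrrc15 held 6.25% of the Tnc UMIs in OVX, and with E2 they held 59.0% (OVX_E2), 51.3% (OVX_E2_PBDE), 62.3% (OVX_E2_P4) and 25% (OVX_E2_P4_PBDE). The split removes 12 barcodes in OVX and 81 in OVX_E2, so Tnc levels outside the Lrrc15 barcodes are not compared between libraries. This split is itself made on counts, so Lrrc15-expressing cells without a captured UMI stand among the negatives.

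**Figure D4:**
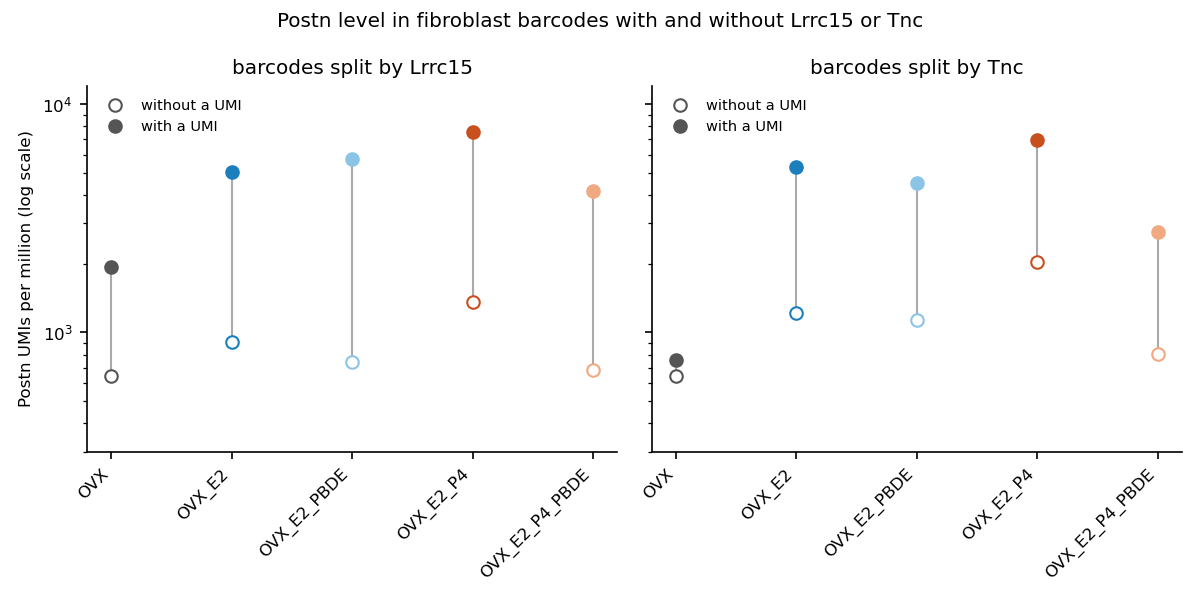
Postn level (UMIs per 1000000, logarithmic axis) in fibroblast barcodes with (filled) and without (open) a UMI of Lrrc15, left, or Tnc, right, by library. Filled points lie at 4178 to 7550 CPM for Lrrc15 with E2, and in OVX the Tnc split gives 754 against 647 CPM.

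The genes most like each member were ranked by r within each library, as the median over the 5 libraries and 8687 genes with a UMI in at least 2% of the fibroblast barcodes of every library. For Lrrc15 they were Mfap4 (a microfibril-associated glycoprotein, median r 0.53), Cthrc1 (a secreted collagen triple helix protein, 0.50), Postn (0.49), Hmcn1 (hemicentin, a matrix protein, 0.45), Mdk (the growth factor midkine, 0.44), F2r (a thrombin receptor, 0.43), Col15a1 (0.43) and Hc (complement component, 0.42). For Tnc they were Mfap4 (0.33), Mdk (0.28), Spon1 (F-spondin, 0.27), Enpp2 (autotaxin, 0.26), Sfrp1 (a secreted Wnt antagonist, 0.25), Fxyd6 (0.24), Gas1 (0.23) and Hmcn1 (0.23). The limit of 2% keeps Lrrc15 itself out of this ranking, and its r with Tnc was 0.12 in OVX and 0.14 to 0.28 with E2. For Postn they were Col1a1 (0.60), Mdk (0.58), Mfap4 (0.57), Col1a2 (0.56), Sparc (0.56), Col3a1 (0.56), Cthrc1 (0.54) and Col15a1 (0.53), of which Col1a1, Col1a2 and Col3a1 are gate genes. The barcodes of a library share its depth and its gate, so these values carry no p.

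The pattern around Postn in OVX differed from that in the other libraries, as a description. Its r with Mfap4 was 0.07 in OVX and 0.43 to 0.62 with E2, that with Mdk 0.01 and 0.50 to 0.66, and that with Cthrc1 0.05 and 0.42 to 0.62. Its r with the gate gene Col1a1 was 0.24 and 0.54 to 0.70. For Lrrc15, near absent in OVX, the r with Mfap4 was 0.13 there and 0.43 to 0.60 with E2. Its r with Cthrc1 was 0.06 and 0.33 to 0.54. For Tnc the r with Mfap4 was 0.36 in OVX and 0.16 to 0.34 with E2, and that with Spon1 0.43 and 0.21 to 0.31, so these pairs were already present in OVX. The genes with the lowest values, named after their values were seen, included Clec3b, Ly6a and Gsn for each member. In the order Lrrc15, Tnc and Postn, the median r was -0.53, -0.31 and -0.54 for Clec3b, -0.52, -0.27 and -0.59 for Ly6a, and -0.49, -0.28 and -0.56 for Gsn. These medians hide the values of OVX. There, in the same order, r was -0.06, -0.27 and -0.01 for Clec3b and -0.07, -0.29 and -0.02 for Ly6a. For Gsn it was -0.03, -0.09 and 0.12.

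Barcodes with 2 or 3 members after thinning were compared with barcodes that had none, 53 against 707 in OVX and 29 to 120 against 117 to 595 in the libraries with E2. Of 8881 genes with at least 200 UMIs, 1.67% were at least 2-fold higher in each of the 5 libraries and 1.49% at least 2-fold lower. Among genes known from activated fibroblasts, 8 of 28 measured were higher, Tpm2, Cthrc1, Col12a1, Lox, Mmp11, Sfrp1, Sdc1 and Runx2, and 0 were lower. Cthrc1 was 6.44 to 29.9 times as high by library, Mfap4 24.4 to 94.0 times, and Pi16, a marker of adventitial fibroblasts, 0.115 to 0.350 times. Every barcode with 2 members held Postn with Lrrc15 or Tnc, so the split was next made for these genes on their own.

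In the 4 libraries with E2, the 29 to 177 barcodes with an Lrrc15 UMI were compared with the rest, and 2.09% of 7608 genes were at least 2-fold higher in each library and 1.75% lower. Of the activated fibroblast genes 9 of 27 were higher and 0 lower, with a list median of 0.79 against 0.00 over all genes on the log2 scale. Cthrc1 was 6.50 to 10.6 times as high, for example 551 against 59.6 CPM in OVX_E2. Col12a1 (a fibril-associated collagen) was 5.60 to 11 times as high, Mmp11 (stromelysin-3) 4.86 to 8.33 times, Sfrp1 4.05 to 4.87 times, Sdc1 (the proteoglycan syndecan-1) 2.85 to 7.38 times, Adam12 (a metalloprotease) 2.69 to 6.46 times, and Runx2 (a transcription factor of skeletal development) 2.98 to 4.53 times. Col5a1 and Col5a2 complete the 9. Acta2, the smooth muscle actin of myofibroblasts, was not among them, at 0.639 to 1.02 times.

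The other lists are given by their counts. Of 18 measured matrix partners of tenascin-C and periostin, 7 were higher and 0 lower, namely the gate genes Col1a1, Col1a2 and Col3a1 with Col5a1, Col6a1, Col6a2 and Eln, and Eln (elastin) was 4.95 to 7.79 times as high. Of the matricellular relatives 3 of 19 were higher, Sparc (2.38 to 3.17 times), Wisp1 (4.97 to 9.89 times) and Spon1 (2.99 to 4.66 times), and Nov was lower. Among leucine-rich repeat proteins Bgn (biglycan) was higher and Lrrn4cl and Ogn were lower, 3 of 15 in all. Of 11 integrins and other receptors 0 passed in either direction, and of 23 TGF-beta genes only the ligand Bmp2 did, at 0.0521 to 0.297 times. The 29 positive barcodes of OVX_E2_P4_PBDE held 141225 UMIs, so there the ratio of a low gene can rest on single UMIs. Of the 16 dissociation and immediate early genes 0 passed.

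Genes of fibroblast subsets split by direction. Col15a1, Penk, Spon1, Crabp1 and Mfap4, 5 of the 17 measured, were higher with Lrrc15, and Pi16, Anxa3 and Ly6c1 were lower. Mfap4 was at 1239 against 101 CPM in OVX_E2 and 9.77 to 24.4 times as high over the 4 libraries, Crabp1 (a retinoic acid binding protein) 3.62 to 11.5 times, and Col15a1 4.23 to 6.11 times. Pi16 was 0.144 to 0.407 times as high and Anxa3 0.0847 to 0.450 times. Of the 58 OVX_E2 barcodes with Crabp1, 36.2% were Lrrc15-positive after thinning against 3.97% of those without it, and 16.7% of the 257 with Col15a1 against 1.44%. The thinning was of the members only. Median UMIs with and without the subset gene were 7316 and 6665 for Crabp1, and 6704 and 6687.5 for Col15a1. Among steroid receptors and responsive genes, Igf1 was higher (2.08 to 2.85 times), and the estrogen receptor gene Esr1 (0.262 to 0.455 times) and Igfbp5 (0.145 to 0.381 times) were lower, 3 of 12 measured.

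Some of the most abundant genes of the lists are given for comparison, as barcodes with Lrrc15 against those without it in the same 4 libraries. Mmp2 and Mmp3, matrix metalloproteases, were 1.49 to 2.24 and 1.38 to 2.54 times as high, Loxl1, a lysyl oxidase, 1.43 to 1.60 times, and the fibronectin gene Fn1 1.02 to 1.28 times. The gate gene Dcn (decorin) was 0.788 to 1.14 times as high and Lum (lumican) 1.69 to 2.36 times, while Bgn reached 3.27 to 4.89 times. Lower values were found for Cyr61 (0.339 to 0.533 times), Cd34 (0.330 to 0.640 times), Id3 (0.556 to 0.742 times) and the TGF-beta receptor gene Tgfbr2 (0.489 to 0.663 times), with the follistatin gene Fst at 0.237 to 0.637 times. The integrin gene Itgb1 was 1.18 to 1.53 times as high and Egfr 1.37 to 1.53 times. Their list of integrins and other receptors had a median of -0.37 against 0.00 over all genes on the log2 scale. These genes thus do not stand for the list, and its more abundant Anxa2 and Sdc4 are not given. The immediate early genes Fos, Jund and Junb lay between 0.792 and 1.23 times, near the level of the other barcodes.

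The same split was made by Tnc, OVX included. Over the 5 libraries, with 14 to 100 positive barcodes, 0.698% of 8881 genes were at least 2-fold higher in each and 0.968% lower. Of the activated fibroblast genes 5 of 28 were higher, Cthrc1 (2.39 to 6.07 times), Col12a1 (2.30 to 7.29), Sfrp1 (2.73 to 6.15), Sdc1 (2.28 to 8.22) and Runx2 (2.61 to 14.6). The 14 positive barcodes of OVX_E2_P4_PBDE held only 65827 UMIs. For low genes such as Runx2, passing the limit there, in either direction, can rest on single UMIs. Among subset genes Spon1 and Mfap4 were higher, and Pi16, Anxa3, Dpp4, Ly6c1 and Sema3c were lower, 7 of 17. In OVX, where 12 barcodes held Lrrc15, the 100 barcodes with Tnc had 723 CPM of Spon1 against 54.7, 330 CPM of Mfap4 against 19.6, 245 CPM of Crabp1 against 16.2 and 387 CPM of Sfrp1 against 100.1. Of the 121 OVX barcodes with Crabp1, 27.3% held Tnc after thinning (19.6 to 36.1) and 1.65% held Lrrc15 (0.201 to 5.84). Wisp1 and Spon1 were 2 of 19 matricellular genes that were higher, of 18 matrix partners only Pcolce2 passed and was lower, of 23 TGF-beta genes only Tgfb2 passed and was lower, of 15 leucine-rich repeat genes only Lrrn4cl passed and was lower, of 13 steroid genes only Igfbp5 passed and was lower, and 0 of 11 receptors and 0 of 16 immediate early genes passed.

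**Figure D5:**
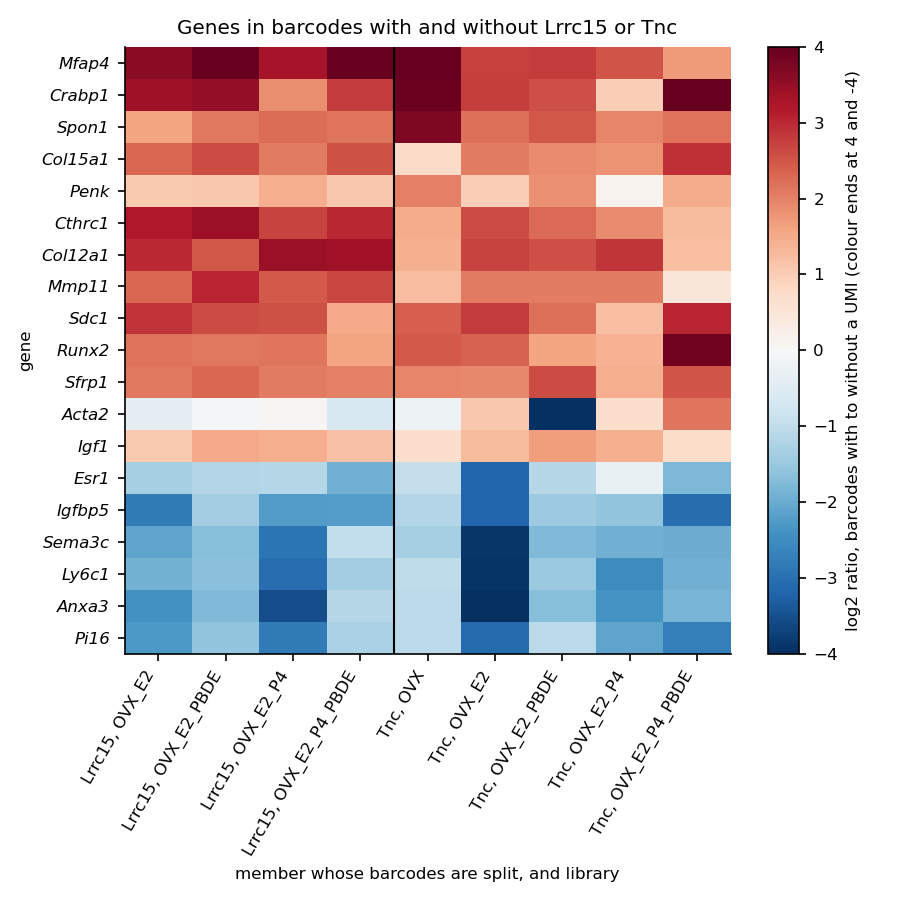
Log2 ratio of gene levels between fibroblast barcodes with and without a UMI of Lrrc15 (left columns, 4 libraries with E2) or Tnc (right columns, 5 libraries); red is higher with the member, blue lower, and colours end at 4 and -4. Mfap4, Cthrc1 and Col12a1 are red in every column, Pi16, Anxa3 and Ly6c1 are blue in every column, and Acta2 is near 0 in the Lrrc15 columns.

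Markers of other cell types in the barcodes with Lrrc15 or Tnc are given for comparison. The summed epithelial markers were 368 to 701 CPM with Lrrc15 and 410 to 705 CPM without it in the 4 libraries with E2. The summed pericyte markers were 19.2 to 48.2 CPM with and 41.3 to 51.4 CPM without Lrrc15, and the defining marker Rgs5 was at 0 in the Lrrc15-positive barcodes of every library but OVX_E2_PBDE. In OVX_E2_P4 it was at 0 in all fibroblast barcodes, so its absence there is not particular to those with Lrrc15. The endothelial markers summed to 1.60 to 15.4 CPM with and 8.38 to 21.7 CPM without Lrrc15, the hematopoietic ones to 14.9 to 65.6 and 17.3 to 42.9 CPM, and the basal ones to 4.48 to 23.2 and 12.1 to 51.2 CPM. By library, the hematopoietic markers were higher with Lrrc15 in OVX_E2 (25.5 against 17.3 CPM), OVX_E2_P4 (65.6 against 26.2) and OVX_E2_P4_PBDE (56.6 against 42.9). They were lower in OVX_E2_PBDE (14.9 against 23.8). The endothelial ones were higher with Lrrc15 in OVX_E2_P4 only (15.4 against 8.38), and the basal ones in OVX_E2_P4_PBDE only (21.2 against 17.3). With and without Tnc in the 5 libraries, the epithelial markers summed to 198 to 688 and 217 to 705 CPM, and the pericyte markers to 0 to 38.5 and 40.8 to 48.7 CPM with Rgs5 at 0 in all Tnc-positive barcodes. The basal markers were at 107 CPM with and 45 CPM without Tnc in OVX_E2, 25 positive barcodes, and at or below the level without Tnc in the other libraries. The hematopoietic markers were higher with Tnc in OVX (60.2 against 39.4 CPM) and OVX_E2 (32.0 against 17.8 CPM) and lower in the other 3 libraries. The endothelial markers were at 334 CPM with and 11.4 CPM without Tnc in the 14 barcodes of OVX_E2_P4_PBDE, and lower with Tnc in the other libraries. The part of these markers in the Lrrc15 and Tnc values was not tested.

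The same gene lists were also compared between the libraries over all fibroblast barcodes, with 1 UMI added to each sum and a limit of 2-fold. In OVX_E2 against OVX, 2.41% of 10446 genes with at least 50 UMIs were higher and 1.67% lower. Of 29 measured activated fibroblast genes 9 were higher and 0 lower, with a list median of 0.56 against 0.05 over all genes on the log2 scale. They were Cthrc1 (16.9 to 112 CPM), Sdc1 (8.50 to 49.5), Adam12 (12.1 to 31.1), Runx2 (4.87 to 11.4) and the contractile genes Acta2 (22.4 to 77.6), Tagln (10.5 to 59.0), Myl9 (41.6 to 89.7), Tpm2 (11.7 to 34.5) and Cnn1 (3.78 to 10.4), the values being those of OVX and of OVX_E2. Col12a1, Col5a1, Col5a2, Mmp11 and Sfrp1, which were higher in the barcodes with Lrrc15, were not among them. The summed basal markers, from cells that also contain contractile proteins, were 24.1 CPM in the fibroblast barcodes of OVX and 47.0 CPM in those of OVX_E2, and their part in the contractile genes was not tested.

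The other lists gave fewer genes in this comparison. Of 20 matricellular genes Wisp1, Spon1 and Spon2 were higher and Tgfbi, Wisp2 and Smoc2 lower, with Tgfbi, a periostin relative with fasciclin domains, at 154 CPM in OVX and 47.3 CPM in OVX_E2. Of 17 subset genes Spon1 and Mfap4 were higher and Smoc2, Penk, Inmt and Gdf10 lower, with Mfap4 at 31.3 and 222 CPM. Of 15 steroid genes Pgr was higher (2.83 and 7.66 CPM) and Tsc22d3 lower. Of 16 immediate early genes 2, Hspa1a and Hspa1b, were lower and 0 higher. Of 23 TGF-beta genes, 18 matrix partners, 12 receptors and 15 leucine-rich repeat genes, 0 reached the limit in either direction. Among the abundant matrix genes Lum was 1.83 times as high in OVX_E2 as in OVX (1.79 to 1.88), Col1a1 1.51 times (1.49 to 1.54) and Sparc 1.26 times (1.24 to 1.27). Bgn was 0.690 times as high (0.652 to 0.729), although it was higher in the barcodes with Lrrc15, and Tnxb, a tenascin of loose connective tissue, was 0.570 times as high (0.542 to 0.599).

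Cthrc1 and Mfap4 followed the order of Lrrc15 and Postn over the libraries with hormones. In the order OVX_E2, OVX_E2_PBDE, OVX_E2_P4 and OVX_E2_P4_PBDE, Cthrc1 was at 112, 79.0, 163 and 65.1 CPM and Mfap4 at 222, 189, 293 and 127 CPM. For OVX_E2_P4 against OVX_E2, where 0.888% of 8896 genes were higher and 0.809% lower, 2 of 29 activated fibroblast genes were higher (Col12a1 and Col8a1) and 2 lower (Acta2 and Cnn1). For OVX_E2_P4_PBDE against OVX_E2_P4, with 0.611% of 7690 genes higher and 1.65% lower, 0 of 28 were higher and 5 lower (Cthrc1, Lox, Mmp11, Sdc1 and Runx2). For OVX_E2_PBDE against OVX_E2, with 0.289% of 10376 genes higher and 1.3% lower, 0 of 29 were higher and 5 lower, Acta2, Tagln, Tpm2, Cnn1 and Runx1, a different set in which Runx1 was the only one outside the contractile genes. For OVX_E2_P4_PBDE against OVX_E2_PBDE, with 1.79% of 9970 genes higher and 0.351% lower, 3 of 28 were higher (Acta2, Tpm2 and Col8a1) and Mmp11 was lower.

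The barcodes outside the gate that carried markers of several classes also held these genes. In OVX_E2_P4 there were 482 of them, 413 of which passed the collagen limit, and their Lrrc15 level was 34.5 CPM (28.4 to 41.6) against 46.4 in the fibroblast barcodes. In OVX_E2_P4_PBDE the 317 such barcodes had 6.46 CPM (3.23 to 11.6) against 12.7. Their Postn level was 1784 CPM (1738 to 1831) in OVX_E2_P4 and 557 CPM (522 to 594) in OVX_E2_P4_PBDE, so both genes had the same order between these libraries outside the gate as inside it. The gate itself was moved as well. At a collagen limit of 25 in place of 50 the fibroblast barcodes numbered 2556, 813, 1842, 575 and 694, and at 100 they numbered 2512, 798, 1661, 546 and 581, in the order OVX, OVX_E2, OVX_E2_PBDE, OVX_E2_P4 and OVX_E2_P4_PBDE.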

How the data were processed

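Single-cell libraries of dissociated mammary gland were made by the authors with the 10x Genomics Chromium kit (version 2 of its 3′ chemistry). The authors aligned reads to mm10 and counted UMIs with Cell Ranger 2.0.0, per the labels, and deposited raw UMI counts per gene and barcode; the gene annotation release is not given in the sources used here. Barcodes with at least 500 genes, 1000 UMIs and at most 10% mitochondrial UMIs were kept, which removed 27 of 14344. No doublet caller was run. The fibroblast limits, and limits of 5 per 10,000 (10 for basal) on markers of other classes, were applied in Python 3.11.15 with numpy 2.4.6 and scipy 1.17.1. A barcode inside the fibroblast gate stayed a fibroblast even if it passed the limit of another class. Outside the gate, barcodes past several limits formed a class of their own. Without those past the hematopoietic, endothelial, pericyte or Schwann limit, the fibroblast barcodes numbered 2513 (OVX), 804 (OVX_E2), 1825 (OVX_E2_PBDE), 567 (OVX_E2_P4) and 678 (OVX_E2_P4_PBDE). Total UMIs per library ranged from 19982067 to 42012988. Levels are pooled UMIs per 1000000 with exact Poisson intervals, shares are from barcodes thinned to 3000 UMIs (seed 7) with Clopper-Pearson intervals, and ratios have exact conditional intervals. Beyond the 3 members and gate genes, genes were named from the 8 with the highest r per member. Of each list they came from the 4 most abundant genes, not all of them printed, and those 2-fold different between OVX_E2 and OVX. Ratios between positive and negative barcodes had 2 UMIs added in proportion to the totals of both sides. The splits by Lrrc15 and by Tnc alone, this addition, and the names of list genes past the limit in the splits or in comparisons other than OVX_E2 with OVX, were chosen after seeing the data, and the members and lists were chosen with earlier results of these data known. The procedure was tested on simulated data, for the ratios and the thinning only. The simulated counts were drawn independently and held no variation of expression between barcodes or animals, so its effect was not tested.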

Additional observations from a re-analysis of the deposited data

Results flagged for a closer look

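The comparison of P4 with no P4 gave opposite directions without and with PBDEs for Lrrc15 and for Postn, with counting intervals on opposite sides of 1; at an epithelial limit of 2 the Lrrc15 interval with PBDEs held 1 (0.599, 0.329 to 1.01). The difference between the directions was not tested against animals. For Lrrc15 the ratio was 1.81 without PBDEs (OVX_E2_P4 over OVX_E2) and 0.586 with them (OVX_E2_P4_PBDE over OVX_E2_PBDE). For Postn the ratios were 1.72 and 0.686. For Tnc they were 1.11 and 0.618, with 1 inside both intervals. These are ratios of pooled levels. The intervals of the differences in the share of positive barcodes reached both signs, except for Lrrc15 with PBDEs. Without PBDEs the fibroblast barcodes had a median of 5525 UMIs in OVX_E2_P4 and 6698 in OVX_E2, and made up 18.5% and 36.5% of all barcodes. With PBDEs the median was 4269 UMIs in OVX_E2_P4_PBDE and 7076 in OVX_E2_PBDE, and the shares were 29.3% and 52.2%. The part of these in the ratios was not tested.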

How the results depend on the processing

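No paired analysis was possible because each group has 1 library, and for the same reason no replicate could be left out. Alternatives were the collagen limit (25 or 100 per 10,000), the epithelial limit (2, or 20, the latter added after seeing the data), no quality filter, barcodes of other classes or of high depth left out, median-of-ratios or reduced totals as the scale, added UMIs, the hematopoietic level subtracted, and, added after seeing the data, barcodes without Lrrc15 or Tnc. Of 200 ratios under an alternative, 181 stayed inside the counting interval of the value reported, 18 moved out of it and 1 turned. The one that turned was Postn in OVX_E2_PBDE to OVX_E2, 1.02 on the median-of-ratios scale; Tnc ratios whose interval held 1 crossed 1 in 1 of 13 alternatives for OVX_E2 to OVX and 3 of 13 for OVX_E2_P4 to OVX_E2. With the hematopoietic level subtracted, Lrrc15 was 0.0737 for OVX_E2_P4_PBDE to OVX_E2_P4 and 0.209 for OVX_E2_P4_PBDE to OVX_E2_PBDE, which rest on 2 hematopoietic UMIs in OVX_E2_P4_PBDE, and Postn was 2.18 for OVX_E2 to OVX. Without Lrrc15-positive barcodes, Postn was 1.40 for OVX_E2 to OVX, 1.51 for OVX_E2_P4 to OVX_E2, 0.505 for OVX_E2_P4_PBDE to OVX_E2_P4, 0.923 for OVX_E2_P4_PBDE to OVX_E2_PBDE and 0.823 for OVX_E2_PBDE to OVX_E2, and Tnc was 0.455 for OVX_E2 to OVX, 0.572 for OVX_E2_P4_PBDE to OVX_E2_P4 (0.255 to 1.23) and 0.685 for OVX_E2_PBDE to OVX_E2 (0.439 to 1.08). This split removes 12 barcodes in OVX and 29 to 177 with E2, with 6.25% and 25% to 62.3% of the Tnc UMIs, so these values follow in part from the split. Without Tnc-positive barcodes, Postn was 1.87 for OVX_E2 to OVX and 0.393 for OVX_E2_P4_PBDE to OVX_E2_P4. At an epithelial limit of 2, Postn was 1.49 for OVX_E2_P4 to OVX_E2, 0.442 for OVX_E2_P4_PBDE to OVX_E2_P4 and 0.736 for OVX_E2_P4_PBDE to OVX_E2_PBDE, and the intervals of 3 further ratios came to hold 1: Tnc 0.468 for OVX_E2_P4_PBDE to OVX_E2_P4, Tnc 0.719 for OVX_E2_PBDE to OVX_E2 and Lrrc15 0.599 for OVX_E2_P4_PBDE to OVX_E2_PBDE. At the limit of 20, Tnc for OVX_E2_P4_PBDE to OVX_E2_PBDE was 0.537 (0.313 to 0.874), below 1. At a collagen limit of 100, Postn was 0.395 for OVX_E2_P4_PBDE to OVX_E2_P4 and 0.972 for OVX_E2_PBDE to OVX_E2. On the median-of-ratios scale Postn was 1.81 for OVX_E2_P4 to OVX_E2 and 0.384 for OVX_E2_P4_PBDE to OVX_E2_P4. Lrrc15 and Postn in 1 barcode were 1.13 times the expected number without thinning, with or without strata of depth, and 1.32 times with it. With a 1.5-fold limit, activated fibroblast genes lower numbered 1 for OVX_E2 to OVX, 8 for OVX_E2_PBDE to OVX_E2 and 11 for OVX_E2_P4_PBDE to OVX_E2_P4, and on the median-of-ratios scale 1 for OVX_E2_P4 to OVX_E2. The cause of these shifts was not tested. Shares follow depth: 39 of 150 moved, chiefly without thinning, at 1500 UMIs or with 2 UMIs required, and those of Lrrc15 with 2 UMIs were 0% in OVX and 0.434% to 2.44% with E2.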
